A study of Mus musculus with 8 samples.

Results

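The transcription factors associated with hormone-sensing luminal cells of the mammary gland were examined as 8 genes, Gata3, Foxa1, Tbx3, Tbx2, Spdef, Myb, Tfap2a and Tfap2c, which were taken by Entrez Gene ID from a table of 24594 genes. Total RNA came from cells of wild type C57BL/6J mice, which had no specific treatment and whose mammary glands were those of virgins. Luminal cells were sorted by flow cytometry, for which the labels name EpCAM, CD49f, c-Kit and CD14, and the study's text names c-Kit as the marker that divides them into a c-Kit-high fraction, here called luminal progenitors (LP), and a c-Kit-low fraction of differentiated cells, here called mature luminal cells, with 4 libraries each. All 8 genes had a row in the table, 7 of them had counts, and these 7 passed the filter on low counts.

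The luminal layer of the mammary duct holds progenitors, which feed the milk-secreting alveolar lineage, and mature cells, which carry the receptors for estrogen, progesterone and prolactin and pass hormone signals on to their neighbours. Gata3, a zinc-finger factor, is required for luminal cells to form and to stay differentiated. Foxa1, a forkhead factor that opens chromatin, lets the estrogen receptor reach its sites. Tbx3 and Tbx2 are T-box repressors, Spdef is an ETS-family factor of secretory epithelia, Myb is a factor of proliferating progenitors in many tissues, and Tfap2a and Tfap2c belong to the AP-2 family, which is active in luminal epithelium and in breast cancer.

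Of the 8 genes, 5 had at least 1 promoter window in the RefSeq table for GRCm38.p6, the assembly of mm10, and 2 of their 6 windows held a match to any of the letters searched in the 250 bases before the start, on both strands. These windows of Gata3 and Foxa1 are printed because they hold letters that factors of the same families bind. The Gata3 window is chr2:9878601-9878850 on the minus strand, inside the gene's span, and its capitals mark 3 matches to the AP-2 letters GCCNNNGGC, which end 238, 223 and 213 bases before the start. The Foxa1 window is chr12:57546112-57546361 on the minus strand, also inside the gene's span, and its capitals mark the forkhead letters TGTTTAC as read on the opposite strand, ending 135 bases before the start.
Gata3: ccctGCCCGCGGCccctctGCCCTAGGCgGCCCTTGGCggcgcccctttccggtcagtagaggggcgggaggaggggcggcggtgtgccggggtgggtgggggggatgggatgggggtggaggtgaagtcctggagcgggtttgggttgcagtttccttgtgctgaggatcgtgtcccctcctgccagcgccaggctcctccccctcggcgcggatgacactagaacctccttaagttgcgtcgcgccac
Foxa1: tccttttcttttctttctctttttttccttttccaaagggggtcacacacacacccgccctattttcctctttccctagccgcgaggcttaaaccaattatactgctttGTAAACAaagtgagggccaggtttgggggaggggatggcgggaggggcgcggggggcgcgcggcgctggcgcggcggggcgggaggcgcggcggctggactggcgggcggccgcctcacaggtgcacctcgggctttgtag
Over the 32851 windows of the table, GCCNNNGGC occurred in 13.7% and TGTTTAC in 3.17%. The GATA letters AGATAA and TGATAA, which occurred in 9.99% and 7.94% of windows, the T-box letters AGGTGTGA, in 1.12%, and the estrogen response element (GGTCA and TGACC set 3 bases apart), in 0.0639%, had no match in the windows of Gata3, Foxa1, Myb, Spdef and Tfap2a. The Gata3 window had a GC content of 70% and the Foxa1 window of 62%, against a median of 52.4% over all windows. A match is a description of the letters and not evidence of binding.

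LP libraries held between 5510863 and 7089597 counts on genes and mature libraries between 4410049 and 7791593. In the comparison of LP with mature cells, 3161 of 12816 tested genes were called, that is, passed an adjusted p of 0.05 in edgeR's quasi-likelihood test, 1767 of them higher in mature cells and 1394 higher in LP. Scaling to library totals, an alternative chosen after seeing the data, turned this split to 1281 and 2031 and moved the median log2 fold change of all tested genes by 0.189. The 5 luminal markers (Krt8, Krt18, Krt19, Epcam and Cdh1) were present in both fractions and summed to between 11700 and 13100 CPM in LP and between 23600 and 41700 in mature cells. There, 4 of the 5 were called higher, against 13.8% of all tested genes. The 5 luminal progenitor markers (Kit, Elf5, Cd14, Aldh1a3 and Csn3) summed to between 16200 and 26300 CPM (counts relative to the TMM-scaled library size) in LP and to between 343 and 1640 in mature cells, and the labels name the products of Kit and Cd14 among the antigens of the sort. The 5 hormone-sensing markers summed to between 306 and 985 CPM in LP and between 4330 and 6060 in mature cells. Of 7 leukocyte markers, Cd3e, Cd3g and Tyrobp had no count in any library, and the summed level was between 2.03 and 23.9 CPM in LP and between 1.51 and 15.4 in mature cells. The ranges of the 2 fractions also overlapped for the 4 endothelial markers (3.05 to 8.48 and 0.984 to 8.08 CPM, with Kdr at 0), the 4 fibroblast markers (7.35 to 37.9 and 20.6 to 173 CPM) and the 10 basal markers (37 to 87 and 17.6 to 117 CPM). The 5 genes of the dissociation stress list did not overlap in their sum, at 606 to 1020 CPM in LP and 2160 to 10400 in mature cells. Of these 5, 4 were called higher in mature cells, as were 13.8% of all tested genes, and the part of the stress genes in the differences below was not tested. Mature replicate 3 stood apart, with the highest sum of stress genes and of progenitor, basal, endothelial and leukocyte markers among mature libraries. Its stress sum of 10400 CPM came mostly from Hspa1a (8250 CPM), and its endothelial sum of 8.08 CPM came mostly from Pecam1 (7.94 CPM). The leukocyte sum (15.4 CPM) was little above that of mature replicate 2 (13.4 CPM). The fibroblast sum was the lowest of the mature libraries (20.6 CPM, against 20.8 to 173).

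Of the 7 factors tested, 5 were called higher in mature cells, namely Foxa1, Tbx3, Spdef, Gata3 and Tfap2a, where 13.8% of all tested genes were called in that direction. Tfap2c was called higher in LP, where 10.9% of all tested genes were called, and either direction together took 24.7%. Myb was not called, and Tbx2 had no count in any library. The label of hormone-sensing factor therefore did not hold for Tfap2c in these libraries. The median log2 fold change of LP over mature cells was -1.29 over the 7 factors and 0 over all tested genes. The 5 factors higher in mature cells had every mature library above every LP library, which held for 15.5% of tested genes, and Tfap2c had every LP library above every mature library, which held for 14.0%. For each of these 6 factors an exact permutation test over libraries, two-sided, gave p = 0.0286, the smallest value that 4 against 4 libraries allow. Complete separation fixes that value, so the test adds nothing to the separation itself. Without mature replicate 3, Spdef was no longer called, which left 4 factors higher in mature cells and 1 higher in LP. Without LP replicate 1, LP replicate 2 or mature replicate 2, Spdef and Tfap2a were not called, which left 3 factors higher in mature cells. In bulk RNA, fewer cells that express a gene and less RNA per cell cannot be told apart.

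**Figure D1:**
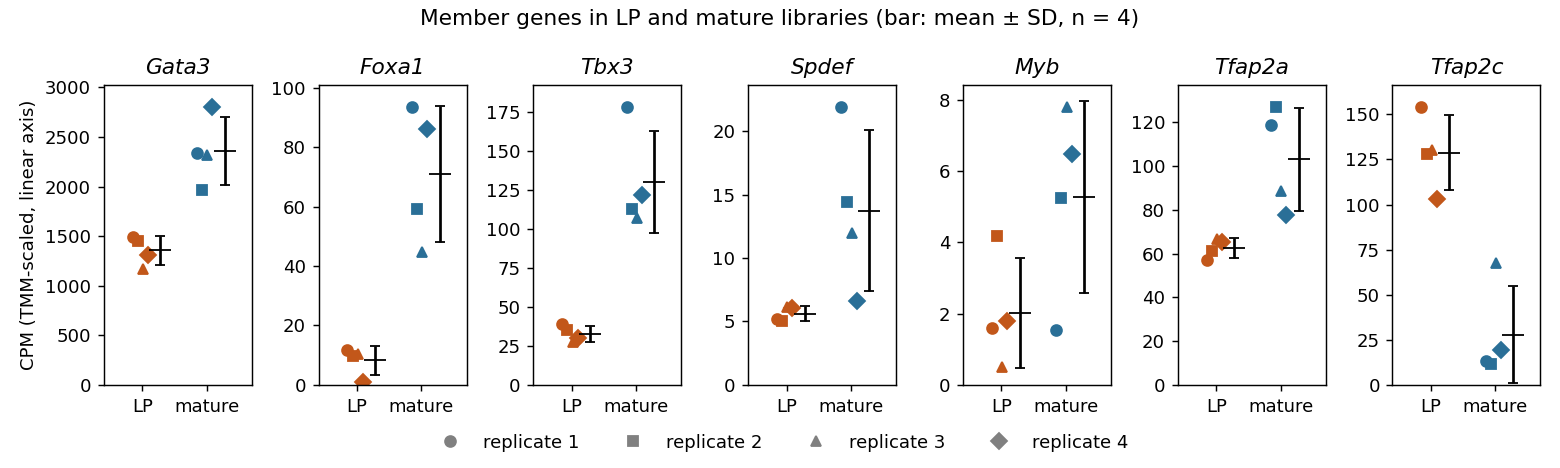
CPM on a linear axis that starts at 0 for the 7 factors with counts, in 4 LP libraries (orange) and 4 mature libraries (blue), with marker shapes for replicate numbers and bars for mean ± SD. The fractions are apart for 6 factors and overlap for Myb, and the triangle of mature replicate 3 lies above the other mature libraries for Tfap2c, at 67.7 CPM.

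Gata3 (Entrez 14462, chr2:9857078-9887953, minus strand) was the most abundant factor in both fractions. Its level was 1490, 1450, 1170 and 1310 CPM in LP replicates 1 to 4 and 2340, 1960, 2320 and 2800 CPM in mature replicates 1 to 4. All mature libraries were higher, yet the LP libraries also carried a large amount of Gata3 mRNA. The mean was 1360 ± 148 CPM in LP and 2360 ± 347 CPM in mature cells (SD, n = 4 each), a 1.74-fold difference (log2 fold change -0.80, SE 0.183, 95% interval -1.20 to -0.39, adjusted p = 0.0100 in edgeR's quasi-likelihood test). Per base of exon it stood at percentile 99.3 of 12194 genes in LP and at percentile 99.4 in mature cells. An antisense gene and a gene on the same strand overlap 5.83% of its exon bases.

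Foxa1 (Entrez 15375, chr12:57540628-57548029, minus strand) differed most. LP replicates 1 to 4 had 11.8, 9.78, 10.5 and 1.11 CPM, and mature replicates 1 to 4 had 93.5, 59.1, 44.8 and 86.3 CPM. LP replicate 4 was far below the other LP libraries, with 8 counts. The means were 8.28 ± 4.85 CPM and 70.9 ± 22.9 CPM (SD, n = 4 each), an 8.59-fold difference (log2 fold change -3.10, SE 0.538, 95% interval -4.29 to -1.91, adjusted p = 0.0026 in edgeR's quasi-likelihood test). Without LP replicate 4 the log2 fold change was -2.73, with an SE of 0.307. Per base of exon, Foxa1 stood at percentile 29.7 of 12194 genes in LP and at percentile 80.5 in mature cells.

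Tbx3 (Entrez 21386, chr5:119670534-119684724, plus strand), which is required for the mammary bud to form in the embryo, had 38.9, 34.9, 27.7 and 29.8 CPM in LP replicates 1 to 4. In mature replicates 1 to 4 it had 178, 113, 107 and 122 CPM. The mature libraries were all higher, with replicate 1 above the rest. The means were 32.8 ± 5.05 CPM and 130 ± 32.8 CPM (SD, n = 4 each), a 3.96-fold difference (log2 fold change -1.98, SE 0.208, 95% interval -2.44 to -1.53, adjusted p = 0.000298 in edgeR's quasi-likelihood test).

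Tbx2 (Entrez 21385, chr11:85832615-85841948, plus strand), the closest relative of Tbx3, was listed at 0 in all 8 libraries. A count of 0 allows up to 3 counts, which came to between 0.416 and 0.788 CPM per library and covers counting error only. With Tbx2 at that limit in each library, Tbx3 was at least 30.5-fold to 48.9-fold higher than Tbx2 per base of exon in the LP libraries. In the mature libraries it was at least 78.3-fold to 231-fold higher. The exons of Tbx2 share no stretch of read length with another gene.

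Spdef (Entrez 30051, chr17:27714446-27731003, minus strand) was low in both fractions. Its level was 5.23, 5.03, 6.14 and 6.10 CPM in LP replicates 1 to 4 and 21.9, 14.4, 12 and 6.63 CPM in mature replicates 1 to 4. The LP libraries lay close together, and the mature libraries spread from just above them, in replicate 4, to well above. The means were 5.63 ± 0.58 CPM and 13.7 ± 6.36 CPM (SD, n = 4 each), a 2.44-fold difference (log2 fold change -1.29, SE 0.411, 95% interval -2.19 to -0.38, adjusted p = 0.0426 in edgeR's quasi-likelihood test). The call was lost in 10 of 15 alternatives, among them with no filter on low counts (adjusted p = 0.0672), with the replicate number as a block (log2 fold change -1.17, adjusted p = 0.108) and without any 1 library other than mature replicate 4, where the adjusted p lay between 0.0554 and 0.146.

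Myb (Entrez 17863, chr10:21124930-21160984, minus strand) had 1.60, 4.17, 0.498 and 1.80 CPM in LP replicates 1 to 4 and 1.55, 5.25, 7.8 and 6.48 CPM in mature replicates 1 to 4. These rested on 3 to 29 counts per LP library and 11 to 54 per mature library. The fractions overlapped, since mature replicate 1 lay below 3 of the LP libraries. The log2 fold change was -1.37 (SE 0.713, 95% interval -2.95 to 0.20, adjusted p = 0.189 in edgeR's quasi-likelihood test), and the interval holds both no difference and a difference larger than that of Tbx3. Over libraries, an exact permutation test, two-sided, gave p = 0.114. An antisense gene overlaps 6.26% of the exon bases of Myb.

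Tfap2a and Tfap2c went in opposite directions. Tfap2a (Entrez 21418, chr13:40713802-40738238, minus strand) had 56.9, 61.1, 66.9 and 65.3 CPM in LP replicates 1 to 4 and 119, 127, 88.5 and 77.9 CPM in mature replicates 1 to 4. All mature libraries were above the LP libraries, replicates 3 and 4 by the smaller margin. The means were 62.6 ± 4.49 CPM and 103 ± 23.5 CPM (SD, n = 4 each), a 1.64-fold difference (log2 fold change -0.72, SE 0.184, 95% interval -1.12 to -0.31, adjusted p = 0.0171 in edgeR's quasi-likelihood test). The call was lost without LP replicate 1 (adjusted p = 0.0556), LP replicate 2 (0.0503) or mature replicate 2 (0.0501). Antisense genes overlap 14.6% of its exon bases, and 10.1% of its stretches of 51 bases, the read length, occur in another gene, so part of its counts may belong elsewhere.

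Tfap2c (Entrez 21420, chr2:172545678-172558622, plus strand) had 154, 128, 130 and 103 CPM in LP replicates 1 to 4 and 13.1, 11.8, 67.7 and 19.1 CPM in mature replicates 1 to 4. All LP libraries were above the mature libraries, and mature replicate 3 lay between the fractions. The means were 129 ± 21.2 CPM and 27.9 ± 26.7 CPM (SD, n = 4 each), a 4.58-fold difference (log2 fold change 2.19, SE 0.5, 95% interval 1.09 to 3.30, adjusted p = 0.00971 in edgeR's quasi-likelihood test). Without mature replicate 3 the log2 fold change was 3.15, with an SE of 0.246. That library had 117 CPM of basal markers and 8.08 CPM of endothelial markers, against at most 57.7 and 2.41 CPM in the other mature libraries. It also had 179 CPM of Kit and 112 CPM of Elf5, against at most 73.5 and 44.0 CPM in the other mature libraries. Of the same marker list, Cd14 and Csn3 were also highest in mature replicate 3, while Aldh1a3 was at 354 CPM, below the 378 CPM of mature replicate 4. The part of transcripts of other cells in the Tfap2c level of mature replicate 3 was not tested.

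**Figure D2:**
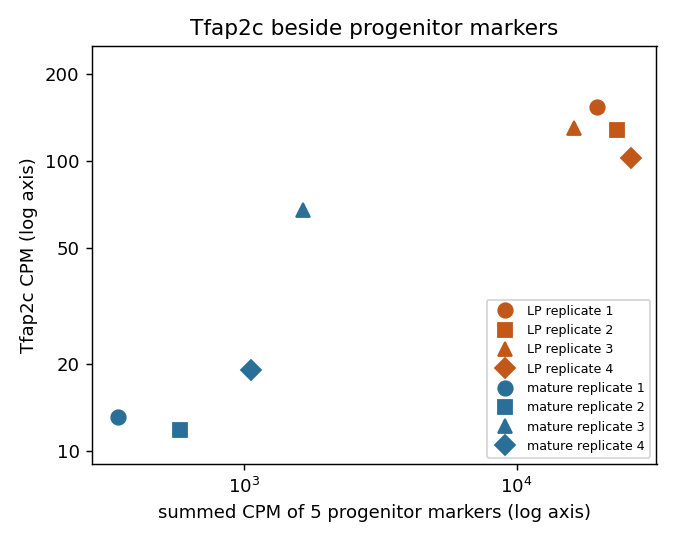
CPM of Tfap2c against the summed CPM of 5 luminal progenitor markers in each library, both on log axes, with LP in orange and mature cells in blue. Mature replicate 3 has the highest Tfap2c (67.7 CPM) and the highest marker sum (1640 CPM) of the mature libraries, and the LP libraries lie at 16200 CPM or more on the marker axis. In LP that sum comes mostly from Cd14 (12100 to 18300 CPM), whose product the labels name among the antigens of the sort.

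**Figure D3:**
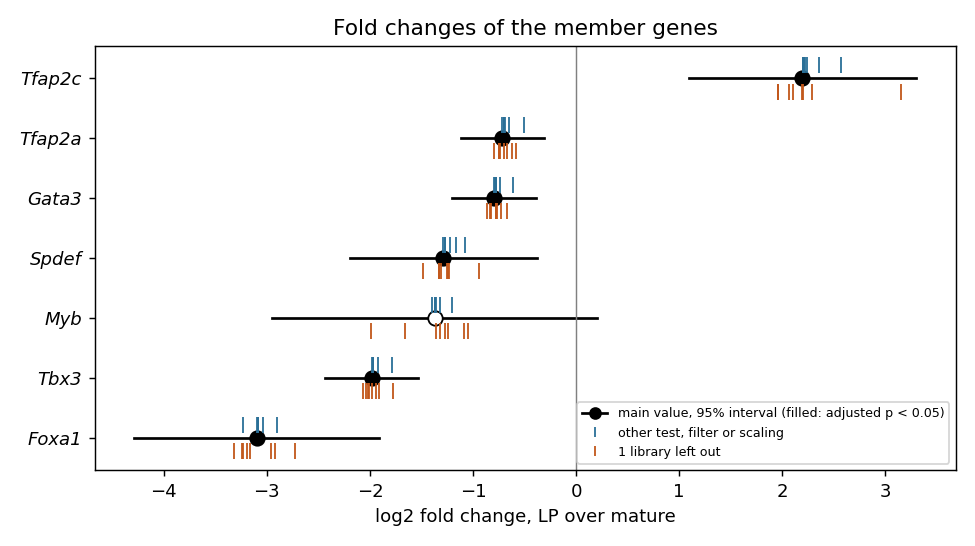
Log2 fold change of LP over mature cells for the 7 tested factors, with 95% intervals, filled points for an adjusted p under 0.05, blue ticks for other tests, filters or scalings and orange ticks for 1 library left out. No tick crosses 0, the interval of Myb does, and the tick of Tfap2c at 3.15 is the value without mature replicate 3.

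To compare levels between genes, counts were divided by exon length (RPKM, the CPM per kilobase of exon). In LP the mean RPKM fell from Gata3 (341) to Tfap2c (35.1), Tfap2a (12.8), Tbx3 (4.96), Foxa1 (2.49), Spdef (2.44) and Myb (0.226). Library ranges overlapped between the neighbours Foxa1 and Spdef and did not overlap between the other neighbours with counts. In mature cells the order was Gata3 (592), Foxa1 (21.3), Tfap2a (21.0), Tbx3 (19.6), Tfap2c (7.59), Spdef (5.96) and Myb (0.59). From Foxa1 down to Spdef the ranges of all neighbours overlapped, so no neighbours in that stretch were separated by these libraries. Tfap2c thus stood at the second place in LP and at the fifth in mature cells, where its mean rested on mature replicate 3 (18.4 RPKM, against 3.21 to 5.2 in the others). Without that library its mean was 3.99 RPKM (n = 3), below the 6.22 of Spdef.

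The AP-2 family was set out per library as shares of its summed RPKM. Tfap2c made up 46.0%, 39.7%, 47.1% and 36.2% of the sum in LP replicates 1 to 4 and 4.16%, 4.46%, 20.5% and 6.73% in mature replicates 1 to 4. Tfap2b took 16.5% ± 2.53 in LP and 41.5% ± 6.81 in mature cells, and Tfap2a took 15.6% ± 2.55 and 26.2% ± 7.49 (SD, n = 4 each). Tfap2d, at 25.4% ± 4.33 and 23.2% ± 4.47, overlapped between the fractions. The summed level itself also overlapped, between 75.3 and 91.2 RPKM in LP and between 72.1 and 89.8 RPKM in mature cells. The shares of Tfap2a, Tfap2b and Tfap2c were thus apart between the fractions, while the sum overlapped. Neither the shares nor the sum were tested.

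**Figure D4:**
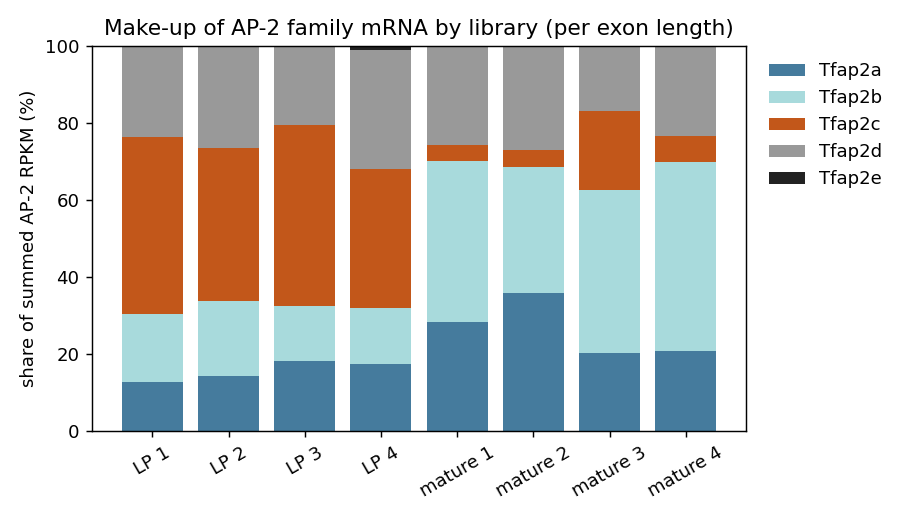
Stacked bars of the share, in percent, that each of 5 AP-2 genes takes of their summed RPKM in every library. The orange share of Tfap2c is 36.2% or more in LP and 20.5% or less in mature libraries, where Tfap2b takes 32.6% or more.

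Ratios of counts within a library, which do not depend on the scaling between libraries, were compared for 4 pairs of related genes. The log2 ratio of Tfap2c to Tfap2a was 1.03 ± 0.325 in LP and -2.25 ± 1.381 in mature cells (SD, n = 4 each), a 9.7-fold difference (exact permutation test, two-sided, p = 0.0286, Benjamini-Hochberg adjusted p = 0.0381 over 4 ratios). The log2 ratio of Tfap2c to Tfap2b was 0.58 ± 0.291 and -3.31 ± 1.004, a 14.8-fold difference with the same exact p = 0.0286 and adjusted p = 0.0381. Gata3 was also set against Trps1, a GATA-type repressor that the study depleted in other experiments. Their log2 ratio was 1.10 ± 0.34 in LP and 3.20 ± 0.469 in mature cells, a 4.3-fold difference with exact p = 0.0286 and adjusted p = 0.0381. Tfap2c and Trps1 were higher in every LP library, and Tfap2a, Tfap2b and Gata3 were higher in every mature library. Complete separation of these ratios followed from that, so their exact tests add nothing to the separation of the single genes. Foxa1 over Esr1, the estrogen receptor gene, had a log2 ratio of -3.52 ± 1.667 in LP and -1.77 ± 0.552 in mature cells, which did not pass (exact permutation p = 0.0857, adjusted p = 0.0857). Without LP replicate 4 that difference was -0.98 in place of -1.75.

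Relatives of the 8 factors were mostly low. Of 15 paralogs, 11 had a count and 4 passed the filter on low counts. Trps1 was higher in LP, at 640 ± 117 CPM against 265 ± 89.3 CPM (log2 fold change 1.27, adjusted p = 0.00438 in edgeR's quasi-likelihood test). Tfap2b, at 87.5 ± 20.9 CPM in LP and 215 ± 44.4 CPM in mature cells (log2 fold change -1.30, adjusted p = 0.00236 in edgeR's quasi-likelihood test), was higher in mature cells. Gata4, at 2.63 ± 0.796 and 11.2 ± 2.14 CPM, was also higher there (log2 fold change -2.09, adjusted p = 0.00491 in edgeR's quasi-likelihood test). Tfap2d was not called, with a log2 fold change of 0.18. Gata5, Gata6, Foxa2 and Tbx5 had no count in any library. The median over the 4 tested paralogs was -0.56, against 0 over all tested genes.

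Of 12 cofactors that these factors are known to work with, all were tested, 3 were called higher in LP, none was called higher in mature cells and 9 were not called, with a median log2 fold change of -0.12. Over all tested genes, 10.9% were called higher in LP and 24.7% in either direction, and the called share of this list lay near the latter. Cited4, which joins AP-2 factors to the acetyltransferases encoded by Crebbp and Ep300, had 306 ± 67.7 CPM in LP and 55.9 ± 24.6 CPM in mature cells (log2 fold change 2.45, adjusted p = 0.000806 in edgeR's quasi-likelihood test). Kctd1, a repressor of AP-2 activity, had 82.3 ± 8.83 and 46.5 ± 4.32 CPM (log2 fold change 0.82, adjusted p = 0.00417 in edgeR's quasi-likelihood test). Zfpm1 and Zfpm2, which encode the FOG partners of GATA factors, were not called, at log2 fold changes of -0.19 and -0.26.

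Of 10 genes known as targets of the factors, 7 were tested, 4 were called higher in mature cells and 2 higher in LP, with a median log2 fold change of -0.68. Over all tested genes, 13.8% were called higher in mature cells and 10.9% higher in LP. The log2 fold changes were -1.75 for Esr1, -1.61 for Cdkn1a, -0.85 for Cdkn1b and -0.68 for Myc, where Cdkn1a and Cdkn1b encode inhibitors of the cell cycle kinases. Bcl2, a survival gene, and Xbp1, a factor of the secretory pathway, were higher in LP, at 1.98 and 1.42. Erbb2, a known AP-2 target, was not called, at 34.8 ± 13.3 CPM in LP and 24.7 ± 5.11 CPM in mature cells. Ret and Cdkn2a had no count in any library.

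Of 12 hormone receptors and effectors, 10 were tested and 8 were called higher in mature cells, with a median log2 fold change of -2.95 and none called higher in LP. Of all tested genes, 13.8% were called higher in mature cells. Cited1, a coactivator of the estrogen receptor, had 4.98 ± 3.51 CPM in LP and 218 ± 51.1 CPM in mature cells (log2 fold change -5.47, adjusted p = 0.000114 in edgeR's quasi-likelihood test). Areg, the growth factor released on estrogen, was at -4.53, Prlr, the prolactin receptor, at -3.35, Wnt4, a progesterone-induced ligand, at -3.02, Stc2 at -2.98 and Pgr, the progesterone receptor, at -2.91. Every mature library was above every LP library for 5 of the 10 tested genes, against 15.5% of all tested genes. Areg overlapped, with 3.01 CPM in mature replicate 4 and 3.16 CPM in LP replicate 2. The difference of Foxa1 (-3.10) was within the range of these receptors and effectors, while those of Spdef (-1.29), Gata3 (-0.80) and Tfap2a (-0.72) were smaller than any of the 8 called.

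Of 8 factors of the progenitor and alveolar lineage, all tested, 5 were called higher in LP and none was called higher in mature cells, with a median log2 fold change of 1.84. Of all tested genes, 10.9% were called higher in LP. The 5 factors called were Bcl11a (3.05), Hey1 (2.93), Sox10 (2.44), Elf5 (2.02), which drives the alveolar fate, and Ehf (1.67). The value of Tfap2c (2.19) lay among them. Sox9 and Stat5a were not called, at -0.24 and -0.58.

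**Figure D5:**
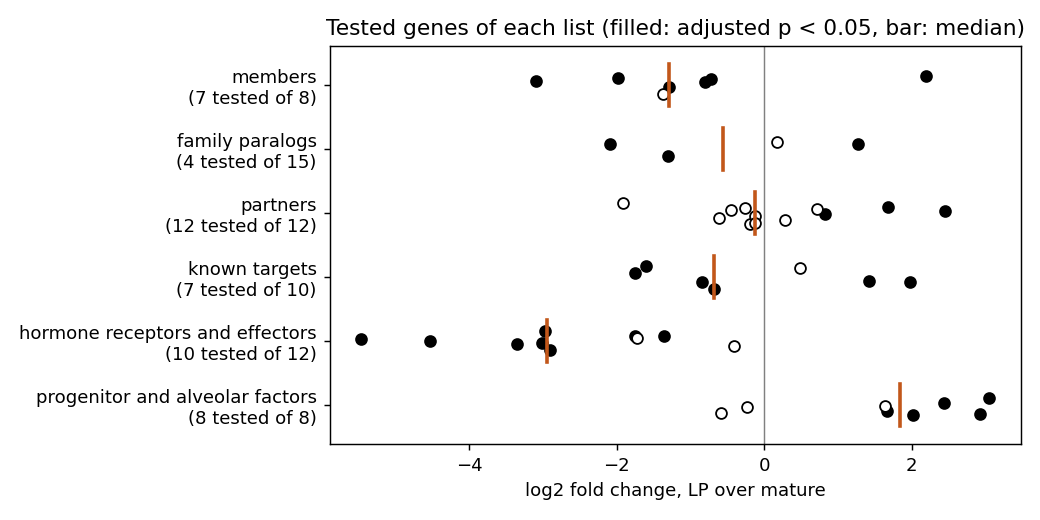
Log2 fold change of LP over mature cells for the tested genes of 6 lists, 1 point per gene with vertical scatter for legibility, filled at an adjusted p under 0.05, and a bar at the median of each list. Medians run from -2.95 for the hormone receptors and effectors to 1.84 for the progenitor and alveolar factors, and that of the 8 factors (members) is -1.29.

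The genes whose log2 CPM over the 8 libraries was most like that of each factor were taken by Pearson's r among genes with a mean log2 CPM of at least 3. These values are descriptions, since the libraries form 2 clusters by fraction and share depth and preparation. Tfap2c was most like Ucp2 (0.99) and Cp (0.987). Foxa1 was most like Ttc6 (0.987), its neighbour on chromosome 12, whose RefSeq span overlaps that of Foxa1 by 1326 bases, and Cyp3a57 (0.985). Tbx3 was most like Arg2 (0.986) and Qsox1 (0.986), and Gata3 was most like Prom1 (0.984), which encodes a surface antigen of mature luminal cells, and Hoxb3os (0.982). For Tfap2a the genes were Vapa (0.989) and N4bp2l2 (0.988), for Spdef Zpr1 (0.979) and Nop14 (0.978), and for Myb Klhl7 (0.961) and Trim23 (0.954). The genes beside Gata3, Foxa1, Tbx3, Tfap2a and Tfap2c were called between the fractions in the direction of their factor, and those beside Spdef and Myb were not called.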

How the data were processed

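RNA of 4 LP and 4 mature libraries was amplified from low input and sequenced as reads of 51 bases. Per the submitters' processing notes, cutadapt 4.2 and Bowtie2 2.3.5.1, which does not split reads across introns, were used with mm10. The authors deposited raw counts per gene for 24594 Entrez IDs, of which 24570 matched a RefSeq symbol. The counting program, its annotation and its use of strand are not given in the sources used here.

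The 12816 genes that passed filterByExpr were scaled by TMM and compared with edgeR 4.0.16 in R 4.3.3 (quasi-likelihood F-test, Benjamini-Hochberg over all tested genes, threshold 0.05). CPM is TMM-scaled, and an SE is the size of the log2 fold change over the root of F. RPKM used exon lengths of GENCODE M21. Log2 ratios used counts plus 0.5 and exact permutation tests (scipy 1.17.1). A planned ratio of Tbx3 to Tbx2 was replaced by a lower bound, since Tbx2 had no count. LP and mature libraries share replicate numbers and a number in their library names. The labels do not say what these mark or whether libraries came from separate mice, so p-values measure the spread between these libraries. The methods state 3 biological replicates, and all 4 of each fraction were used.

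The genes, lists and tests were chosen with earlier results of these data known. Named were the 8 factors, their paralogs, up to 6 called genes per other list by size of change and then abundance, and the 2 genes most like each factor. Zfpm1, Zfpm2, Erbb2, Ret, Cdkn2a, Sox9 and Stat5a were named after their values were seen, and some listed genes are not reported here by name. Alternatives were RLE scaling, DESeq2 1.42.0, the edgeR exact test, other filters, a replicate block, each library left out and, for the ratios, a pseudocount of 2.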

Additional observations from a re-analysis of the deposited data

Results flagged for a closer look

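The level of Tfap2c in mature replicate 3, 67.7 CPM, lay far from the other mature libraries, which had 11.8 to 19.1 CPM. Its gap to the nearest of them was 0.869 of the range of the 4 libraries. Of 22 groups of 4 libraries examined in the same way, 1.1 would be set apart by chance. The same library had 1640 CPM of the 5 progenitor markers, against 343 to 1060 in the other mature libraries, and 10400 CPM of the 5 stress genes, against 2160 to 2570. Hspa1a alone gave 8250 CPM of that stress sum. Fos and Egr1 were also highest in mature replicate 3, while Jun was highest in mature replicate 1 (1330 CPM, against 1140) and Atf3 in mature replicate 2 (405 CPM, against 348). The basal markers (117 CPM, against 17.6 to 57.7) and endothelial markers (8.08 CPM, against 0.984 to 2.41) of mature replicate 3 were the highest of the mature libraries as well, and its fibroblast markers were the lowest (20.6 CPM, against 20.8 to 173). The part of any of these in the Tfap2c level was not tested. Without it, Tfap2c stayed above the mature level in LP (log2 fold change 3.15, adjusted p = 7.7e-05 in edgeR's quasi-likelihood test).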

How the results depend on the processing

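Gata3 (log2 fold change -0.86 to -0.61), Foxa1 (-3.32 to -2.73), Tbx3 (-2.07 to -1.78) and Tfap2c (1.96 to 3.15) kept their direction and stayed called in every alternative that gave a value, and Myb (-1.99 to -1.05) was called in none, with adjusted p from 0.112 to 0.343. Foxa1 and Myb had no value at a minimum of 10 counts in every library. Spdef was not called with no filter (-1.22, adjusted p = 0.0672 in edgeR's quasi-likelihood test), with library totals (-1.08, 0.0732) or without 7 of the 8 libraries in turn (-1.49 to -0.94 over all 8). Tfap2a ranged from -0.80 to -0.58 with a library left out and was at -0.51 with library totals (adjusted p = 0.0423 in edgeR's quasi-likelihood test). It was not called without LP replicate 1, LP replicate 2 or mature replicate 2, and the cause was not tested. The factors called higher in mature cells were 3 to 5 with a library left out, and 3 without LP replicate 1, LP replicate 2 or mature replicate 2. The genes called numbered 2338 to 3791 over all alternatives. With library totals, values relative to the median of all genes were -0.80 for Gata3, -3.09 for Foxa1, -1.98 for Tbx3, -1.27 for Spdef, -0.70 for Tfap2a and 2.17 for Tfap2c.

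The labels give LP and mature libraries the same replicate numbers, and each such pair also shares a number in its library names. Same-numbered libraries deviated together only weakly (correlations 0.057 to 0.135, against a mean of -0.031 for different numbers, with 7 of 8 libraries closest to their own number), and the labels do not say that either number marks 1 mouse. With the replicate block, Spdef was at -1.17 (adjusted p = 0.108), the other calls of the factors were as without it, and 1639 genes were called higher in mature cells and 1388 in LP. The paired exact test of the ratios has a smallest p of 0.125, which it gave for Tfap2c over Tfap2a (3.28), Tfap2c over Tfap2b (3.88) and Gata3 over Trps1 (-2.10), and also for Foxa1 over Esr1 (-1.75), which was lower in LP in all 4 pairs, so this test cannot pass at 4 pairs. Ratios with a library left out were values with no test. The lowest count in a library was 3 for Myb, 8 for Foxa1 and 35 for Spdef.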
